A study of Rattus norvegicus with 6 samples.

Results

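The S100 proteins described here are 9 rat genes, S100a1, S100a4, S100a6, S100a8, S100a9, S100a10, S100a11, S100a13 and S100b, read by 11 probes. They are 9 of the 15645 gene symbols that could be put on the probes of the array, and the 11 probes are 11 of 61537. The genes were chosen from measured differences between bromate and water in these same arrays, so their own differences are given as a description, with no test. All RNA came from the renal cortex of male Sprague-Dawley (Crl:CD(SD)) rats bought at 5 weeks of age and kept on a basal diet with tap water. One group of 3 rats was given potassium bromate, an oxidant known to harm the kidney, at 100 mg/kg/day for 4 weeks. The other group of 3 rats was given water for 4 weeks. The labels call the animals of a group biological replicates, and each had 1 single-colour array. Whole cortex was taken, so every value is a sum over tubules, vessels, interstitium and any leukocytes.

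S100 proteins are small calcium-binding proteins of the EF-hand type that usually work as dimers. Calcium binding turns a helix of the protein outwards and bares a surface that grips target proteins, among them annexins, non-muscle myosin and ion channels. S100A10 is the exception: it no longer binds calcium, stays in the open shape, and sits with annexin A2 under the plasma membrane. Some S100 proteins are also released from cells and act on receptors, as the S100A8 and S100A9 pair of neutrophils and monocytes does on TLR4 and RAGE.

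The arrays had 57.9% to 63.1% of their probes well above background and no saturated probe. Across probes, arrays correlated at 0.987 to 0.991 within bromate, 0.983 to 0.992 within water and 0.966 to 0.977 between the groups. One slide carried all arrays but that of water replicate 1, which had a slide to itself. The 6 proximal tubule genes checked as markers of cortex, such as Lrp2 and Slc34a1, were well above background on all 6 arrays, and 3 of them were called lower in bromate. The call of Slc34a1 among these was lost without water replicate 2 or 3 or bromate replicate 2 or 3 (adjusted p up to 0.0725). A level is the log2 signal of a probe after subtraction of the log2 75th percentile of its array, so it can be negative, and differences are bromate minus water on that scale. It compares arrays for 1 probe and says nothing of 1 gene against another. Over the whole table, 37783 probes were bright enough to test, and limma called 5589 of them (14.8%) at an adjusted p of 0.05 or less, 2717 higher (7.19%) and 2872 lower (7.60%). The median difference of all tested probes was -0.02, and 47.7% were above 0.

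In the RefSeq table of the assembly GRCr8, 8 of the 9 genes lie on chromosome 2, and S100b lies on chromosome 20. The rat S100 family of that table has 20 protein-coding genes, 16 of them on chromosome 2. From S100a1 to S100a10 the table counts 71 protein-coding genes, of which 15 are S100 genes. S100a11 and S100a10 are next to each other, with 0 protein-coding genes between them, and 58 such genes separate S100a9 from S100a11. Those between include the S100 genes S100a7l2 and S100vp. Of the rest, those with a gene name are mostly genes of skin barrier formation.

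Promoter sequences of 6 members were found in the RefSeq promoter table, and 4 are shown because their genes differed in how far the groups lay apart. S100a11 and S100a6 lay higher in bromate by a wide margin, S100a9 lay higher by a narrow one, and in S100a13 the groups overlapped. Each sequence runs from 250 bases before to 50 after the gene's start, 5′ to 3′ on the gene's strand, from GRCr8. The positions are chr2:181874882-181875181 on the plus strand for S100a11, chr2:178398287-178398586 on the plus strand for S100a6, chr2:178490573-178490872 on the minus strand for S100a9 and chr2:178296770-178297069 on the plus strand for S100a13. Capitals mark a GC box (GGGCGG) or a TATA motif (TATAA), read on both strands.
S100a11: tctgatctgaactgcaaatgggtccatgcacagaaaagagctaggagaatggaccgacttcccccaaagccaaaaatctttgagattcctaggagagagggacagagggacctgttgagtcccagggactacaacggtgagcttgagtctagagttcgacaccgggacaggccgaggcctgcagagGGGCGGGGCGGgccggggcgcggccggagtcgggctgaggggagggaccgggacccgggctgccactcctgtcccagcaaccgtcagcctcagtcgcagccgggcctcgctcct
S100a6: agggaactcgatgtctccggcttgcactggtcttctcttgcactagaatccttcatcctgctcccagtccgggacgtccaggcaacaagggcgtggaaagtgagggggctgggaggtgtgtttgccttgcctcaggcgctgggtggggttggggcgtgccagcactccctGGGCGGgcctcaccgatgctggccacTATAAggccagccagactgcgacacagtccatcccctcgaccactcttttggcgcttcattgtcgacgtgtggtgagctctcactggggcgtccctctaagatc
S100a9: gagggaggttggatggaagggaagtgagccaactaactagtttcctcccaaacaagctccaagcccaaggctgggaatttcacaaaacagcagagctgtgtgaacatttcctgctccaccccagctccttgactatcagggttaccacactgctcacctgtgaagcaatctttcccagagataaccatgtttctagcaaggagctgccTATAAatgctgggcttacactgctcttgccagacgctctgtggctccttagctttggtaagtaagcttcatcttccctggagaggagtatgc
S100a13: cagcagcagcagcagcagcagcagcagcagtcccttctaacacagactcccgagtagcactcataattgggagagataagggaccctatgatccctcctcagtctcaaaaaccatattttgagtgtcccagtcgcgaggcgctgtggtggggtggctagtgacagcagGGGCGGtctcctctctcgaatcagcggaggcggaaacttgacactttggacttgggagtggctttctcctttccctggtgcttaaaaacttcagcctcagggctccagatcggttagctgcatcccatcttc

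S100a11 held overlapping GC boxes that begin at positions -64 and -59 from the start. S100a6 held a GC box at -80 and a TATA motif at -54, S100a9 a TATA motif at -42 and S100a13 a GC box at -82. S100a4, whose promoter is not shown, had a TATA motif at -31, and S100b held neither. Of all 33469 promoters in the table, 33.1% hold a GC box and 26.2% a TATA motif, so these matches are common. Searches for the AP-1 motif TGANTCA, the C/EBP motif TTNNGCAA and the NRF2 element TGACNNNGC found no match in the 6 promoters. Those motifs occur in 7.33%, 10.6% and 12.1% of all promoters. GC content was 63.0% for S100a11, 61.3% for S100a6, 56.3% for S100a4, 54.7% for S100a13 and 54.0% for S100b, against a median of 51.7% over all promoters, and S100a9 was the 1 member below that median.

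In the S100 group, 7 of the 11 probes, from 6 genes, were higher in all bromate arrays than in any water array. These genes were S100a10, S100a11, S100a6, S100a4, S100a8 and S100a9. S100b was lower without overlap on 1 probe, and S100a1, S100a13 and the dimmer S100b probe overlapped between the groups. Of all tested probes, 20.0% were higher and 21.1% lower without overlap. At the whole-table threshold 4 S100 probes counted as higher and 1 as lower, beside 14.8% of all probes in either direction, and since the genes were picked on this contrast nothing is read from those counts. Of the 11 probes, 9 were well above background on all 6 arrays, and 10 entered the test. More cells of a type and more RNA per cell cannot be told apart in whole tissue.

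S100a10 encodes the light chain of the annexin A2 tetramer, which links membranes to the cortical actin skeleton and carries channels to the cell surface. Its level was 4.57, 4.78 and 4.62 in bromate replicates 1, 2 and 3, against 2.64, 2.52 and 2.45 in water replicates 1, 2 and 3. The groups were far apart and tight: the lowest bromate array lay 1.93 above the highest water array. The mean was 4.66 ± 0.11 in bromate and 2.54 ± 0.10 in water (SD, n = 3 each), a difference of 2.12 ± 0.10 (SE), or 4.35-fold.

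S100a11, also called calgizzarin, binds annexin A1 and helps mend damaged plasma membrane. It read 2.37, 2.90 and 2.63 in bromate and 1.12, 0.93 and 1.07 in water, replicates 1 to 3. All bromate arrays were clearly above all water arrays, with bromate replicate 2 highest. The difference of means was 1.60 ± 0.15 (SE), or 3.02-fold. The RefSeq table lists 5 pseudogenes and 2 further genes named after S100a11, and 1 pseudogene named after S100a10. Whether the S100a11 and S100a10 probes also read those copies was not examined, so both values are uncertain to that extent.

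S100a6, calcyclin, is a partner of annexin A11 and of the ubiquitin-pathway adaptor CacyBP. Its bromate levels were 3.85, 4.80 and 4.97, against 3.15, 3.25 and 2.98 in water. Bromate replicate 1 lay nearest to water, and the other bromate arrays lay well above it. The means were 4.54 ± 0.60 in bromate and 3.12 ± 0.14 in water (SD, n = 3 each), a difference of 1.42 ± 0.30 (SE), or 2.67-fold. Without bromate replicate 1 the difference was 1.76.

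S100a4, known as metastasin or fibroblast-specific protein, binds non-muscle myosin IIA and is used as a fibroblast marker. Its brighter probe read 2.01, 2.09 and 2.17 in bromate and 1.78, 1.38 and 1.44 in water. The dimmer probe read 1.35, 1.43 and 1.58 in bromate and 1.19, 0.81 and 0.83 in water. On both probes water replicate 1 was the highest water array and still below every bromate array. The probes gave differences close to each other, 0.55 ± 0.13 (1.47-fold) for the brighter and 0.51 ± 0.13 (1.42-fold) for the dimmer.

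Of 8 fibroblast markers 7 were tested and none passed, and their summed linear level ran over 16.2 to 37.6 in bromate and 30.1 to 35.8 in water. The lowest sum was that of bromate replicate 1, the bromate array with the lowest level of S100a4, S100a6, S100a10 and S100a11. Lum was not above background on any array. Macrophage markers also had their lowest bromate sum in replicate 1, with 102.3 to 163.8 in bromate and 101.7 to 126.1 in water. Lyz2 was the brightest of them and makes up most of each sum, with a difference of 0.24 ± 0.21 (adjusted p = 0.450). Of 9 macrophage markers tested, with a median difference of 0.50, C1qb rose, by 0.93 ± 0.21 (adjusted p = 0.0367), and the other 8 did not pass. Among all tested probes, 7.19% were called higher and 7.60% lower. The C1qb call held in 1 of the 6 fits that left out an array, that without bromate replicate 1, with adjusted p up to 0.105 without any other. Of 7 urothelium markers 2 were tested, and Upk1b fell by 0.91 ± 0.17 (adjusted p = 0.0255), a call lost when any of the bromate arrays was left out (adjusted p up to 0.0849). The part of these cell types in the S100 levels was not tested.

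S100a8 and S100a9 encode the subunits of calprotectin, which neutrophils and monocytes store in their cytosol and release as an alarm signal. S100a8 was at -1.51, -2.35 and -1.31 in bromate and at -2.52, -3.12 and -2.94 in water. Bromate replicate 2 stood only 0.17 above the highest water array. The means were -1.73 ± 0.55 in bromate and -2.86 ± 0.31 in water (SD, n = 3 each), a difference of 1.13 ± 0.31 (SE), or 2.19-fold, which was 0.66 with normexp background correction. S100a9 was at -0.47, -1.20 and -0.20 in bromate, against -1.36, -1.89 and -1.54 in water. The order of arrays was that of S100a8, with bromate replicate 2 again 0.16 above the highest water array. For S100a9 the difference was 0.97 ± 0.28 (SE), or 1.96-fold.

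Neutrophil markers were mostly dim. Of 13 with a named probe, 6 were not above background on any array: the granule genes Elane, Ctsg, Ltf, Ngp and Mmp8, and the chemokine receptor gene Cxcr2. The summed linear level of the 13 was 1.29 to 1.53 in bromate and 1.44 to 1.58 in water. The 7 tested had a median difference of -0.21. Of them 1 rose, 1 fell and 5 did not pass, beside 7.19% higher and 7.60% lower among all probes. Camp, Prtn3, Padi4 and Np4 had differences of -0.21, -0.27, -0.26 and -0.16, none past the test. Dimmer probes of Camp, Prtn3 and Np4, and of Csf3r described next, were not above background on any array, so what the brighter ones read is uncertain. Np4 was the brightest of the 13 and weighs most in their sum. Csf3r, the receptor for granulocyte colony-stimulating factor, rose by 0.69 ± 0.14 (adjusted p = 0.0291), but was well above background on 1 of 3 water arrays only, so the size of its difference is uncertain. That call was lost without water replicate 1 or 3 or bromate replicate 2 or 3 (adjusted p up to 0.0933). Mmp9 is a gelatinase stored in neutrophil granules and also made by other cells. It was well above background on 3 of 3 water arrays and on no bromate array. It entered the test through the water arrays alone, so nothing is read from its call. As a bound, it was at least 3.59-fold lower in bromate. The lectin gene Fcnb read -1.31, -2.29 and -1.60 in bromate and -2.88, -2.74 and -2.54 in water, a difference of 0.99 ± 0.26 (adjusted p = 0.0555). Its lowest bromate array was replicate 2, as for S100a8 and S100a9, but also as for Camp and Np4, which did not rise. How far neutrophils account for either gene was not tested.

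**Figure D1:**
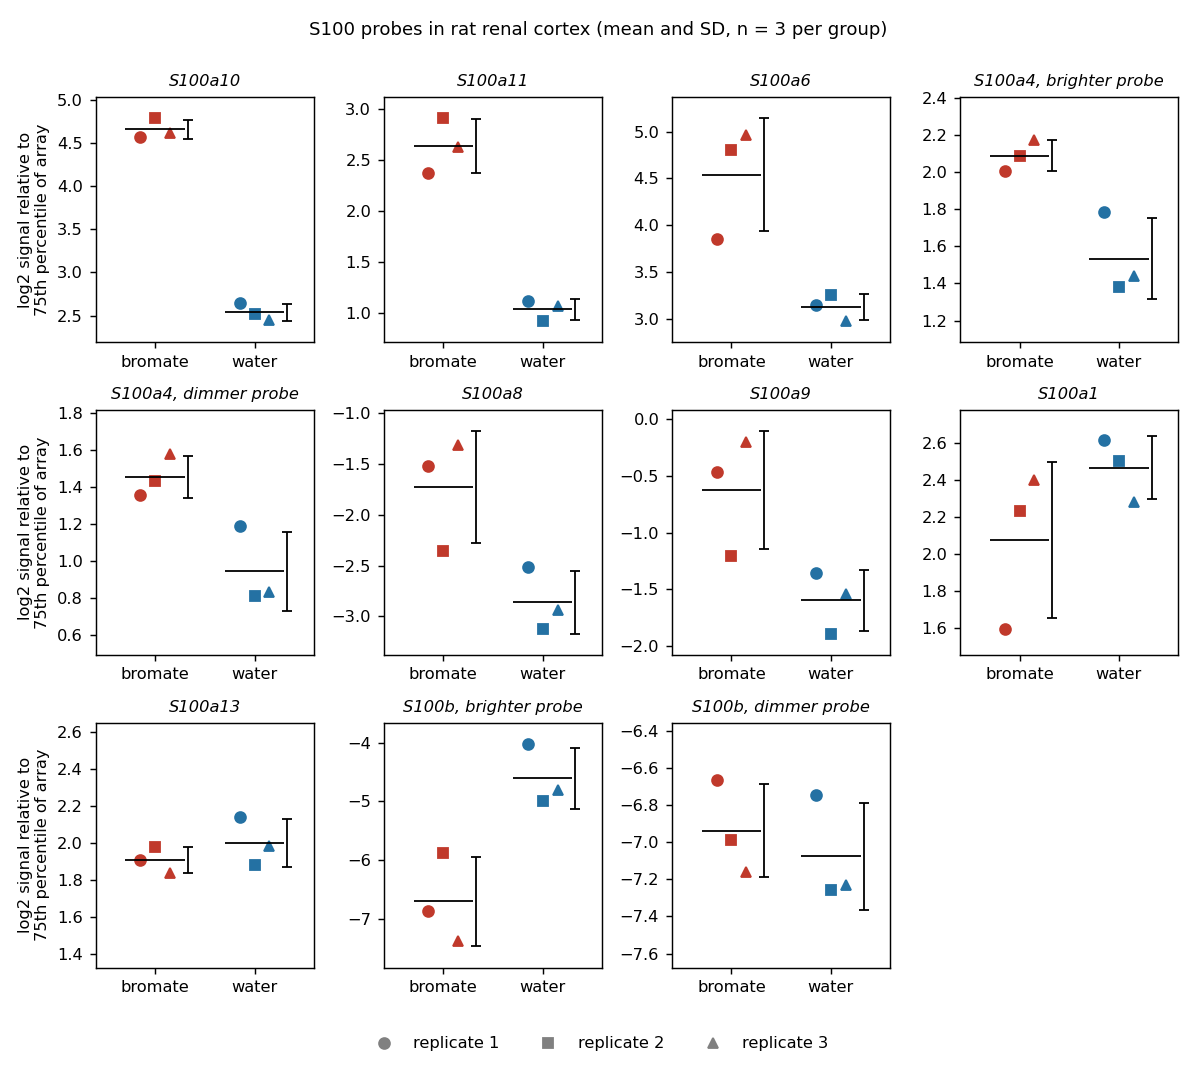
Level of each S100 probe (vertical axis, log2 signal relative to the 75th percentile of the array) in the 3 bromate and the 3 water arrays, with symbols for replicate numbers, a line for the mean and a bar for the SD. S100a10 has the widest gap, 4.57 to 4.78 in bromate and 2.45 to 2.64 in water, S100a8 and S100a9 have narrow gaps, and S100a1, S100a13 and the dimmer S100b probe overlap; each panel has its own vertical range.

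**Figure D2:**
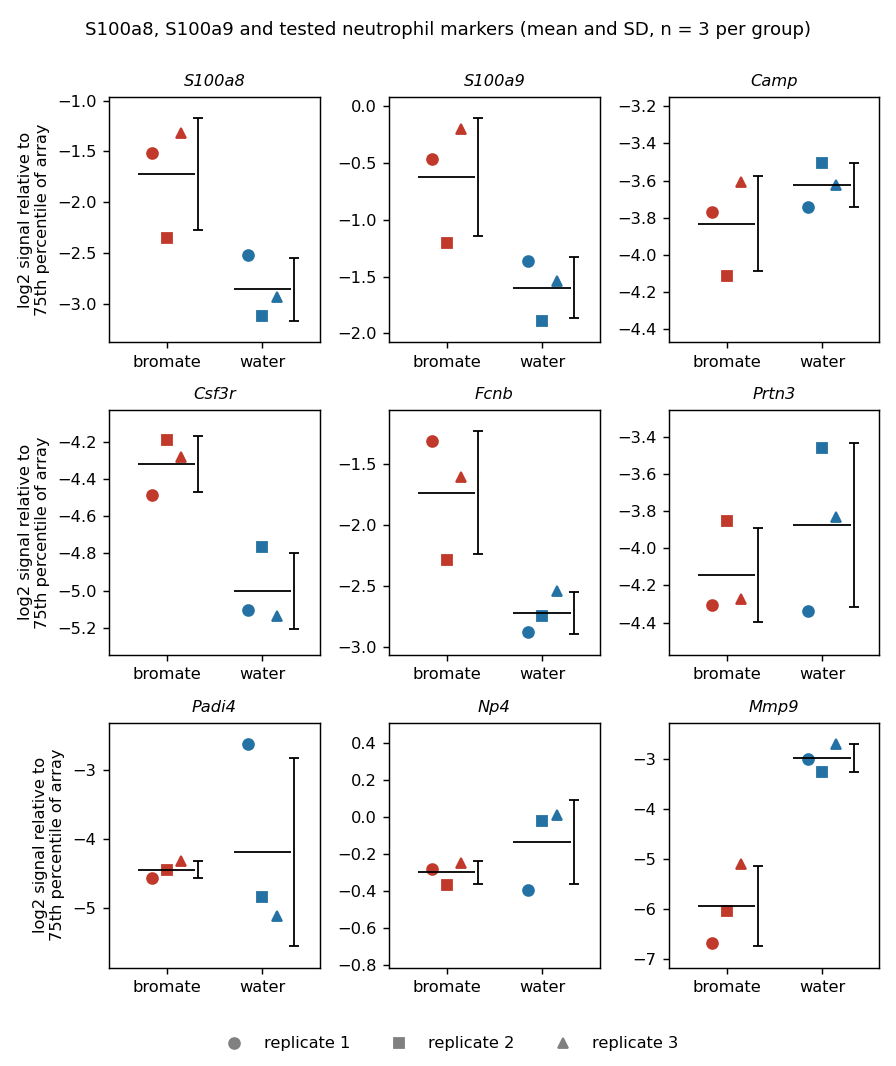
Levels (vertical axis, log2 signal relative to the 75th percentile of the array) of S100a8, S100a9 and all 7 tested neutrophil markers in the 3 bromate and 3 water arrays, with symbols for replicate numbers, lines for the mean and bars for the SD; each panel has its own vertical range. Bromate replicate 2 is the lowest bromate array for S100a8, S100a9 and Fcnb, at -2.35, -1.20 and -2.29, and also for Camp and Np4. Camp, Prtn3, Padi4 and Np4 overlap between the groups, and Mmp9 is lower in bromate.

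S100a1 is best known from heart muscle, where it tunes calcium release and uptake by the sarcoplasmic reticulum, and it is also found in kidney. It read 1.60, 2.24 and 2.40 in bromate and 2.62, 2.50 and 2.28 in water. The groups overlapped, with bromate replicate 1 below all other arrays. The difference of -0.39 ± 0.23 (SE) was -0.15 without that array. S100a13 takes part in the release of FGF1 and interleukin 1 alpha, which leave cells without a signal peptide. Its levels were 1.91, 1.98 and 1.84 in bromate and 2.14, 1.88 and 1.98 in water, overlapping, with a difference of -0.10 ± 0.10 (SE).

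S100b, the S100 protein of glia, is also found in adipocytes. Its brighter probe read -6.87, -5.87 and -7.38 in bromate and -4.02, -4.99 and -4.81 in water. It was well above background on 3 of 3 water arrays and on no bromate array, so the fold is a bound. Setting the bromate arrays at the lowest signal well above background, S100b was at least 1.17-fold lower in bromate. The measured difference was -2.10 ± 0.44 (SE) and shrank to -0.39 with normexp background correction. The dimmer S100b probe was not above background on any array. Of 5 Schwann cell markers tested, among them Mbp and Sox10, none passed, and Cdh19 was not above background on any array. The summed linear level of the 8 Schwann cell markers was 1.96 to 2.74 in bromate and 1.58 to 1.89 in water. Pmp22 was the brightest of the 8 and weighs most in that sum. Its difference was 0.70 ± 0.21 and did not pass (adjusted p = 0.0734), while the median difference of the 5 tested was -0.19. Adipocyte markers had 4 of 5 tested and none passed, with sums of 0.97 to 1.02 in bromate and 1.02 to 1.33 in water, and their part in the S100b level was not tested.

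With slide as a block, which sets water replicate 1 aside, no S100 difference changed its sign. The differences were then 2.17 for S100a10, 1.64 for S100a11, 1.43 for S100a6, 0.68 and 0.63 for the brighter and dimmer S100a4 probes, 1.30 for S100a8 and 1.09 for S100a9. For the members that were not higher, they were -0.32 for S100a1, -0.03 for S100a13 and -1.81 for S100b.

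Some genes had levels that ran closely with an S100 gene over the 6 arrays, among 10657 genes bright on all of them. For S100a10 the 3 highest Pearson correlations were with Slc25a24, a mitochondrial carrier of ATP (0.999), Kif23, a kinesin of cell division (0.999), and Elf3, an epithelial transcription factor (0.998). For S100b they were Nelfcd, Ppp2r5b and Eno3, each at 0.990, although S100b was below background in bromate. For S100a8 they were Gnb2 (0.992), C1h10orf88 (0.992) and Hace1 (0.984), and Gnb2 differed by 0.12 only. These are descriptions over 6 arrays of 2 groups that share their scaling, and they carry no test.

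Few genes of the rest of the S100 family could be tested. Of 10 other S100 genes listed, 7 had a named probe and 3 were bright enough to test. Of the 3, 1 rose, 0 fell and 2 did not pass, beside 7.19% higher and 7.60% lower among all probes. Their median difference was 0.56. S100a16, a widely expressed S100 gene whose product binds calcium, read 4.21, 4.25 and 4.18 in bromate and 3.61, 3.70 and 3.64 in water. Its arrays were tight within each group and did not overlap. It rose by 0.56 ± 0.07 (adjusted p = 0.0100), or 1.48-fold, and kept the call with each array left out (adjusted p up to 0.0461). S100g encodes calbindin-D9k, a calcium carrier of absorbing epithelia, and read 3.32, 1.87 and 2.41 in bromate and 1.70, 1.11 and 1.45 in water. The bromate arrays were spread widely, with replicate 1 far above the others. The difference of 1.11 ± 0.38 did not pass (adjusted p = 0.103).

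S100a5 read -2.48, -2.37 and -2.66 in bromate and -2.30, -1.66 and -1.96 in water on its brightest probe. Its dimmer probes were not above background on any array, so what the brightest one reads is uncertain. The difference of -0.53 ± 0.18 did not pass (adjusted p = 0.100), and was -0.69 (adjusted p = 0.0460) without water replicate 1. Without any other array it ran over -0.60 to -0.37 and did not pass (adjusted p up to 0.225), with -0.37 without water replicate 2. The remaining 4 had too few arrays above background for a test. S100a3, S100a7l2 and S100z were above background on no array, and S100a7a only on water replicate 1. S100vp, outside the list, had 2 probes, neither above background on any array. Of 7 genes of fused S100 proteins of the epidermis, such as filaggrin, none had a named probe, and they were not analysed here.

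Along chromosome 2, S100 genes that were higher in bromate were interspersed with others, and the pair with the largest differences lay at the S100a10 end. In order along the chromosome, the differences ran -0.39 for S100a1, -0.10 for S100a13, 0.56 for S100a16, 0.55 for S100a4, -0.53 for S100a5, 1.42 for S100a6, 1.13 for S100a8, 0.97 for S100a9, 1.60 for S100a11 and 2.12 for S100a10. Of the 56 genes in the stretch that are not S100 genes, 11 had a named probe and 7 were tested. None of the 7 rose and 1 fell, beside 7.19% higher and 7.60% lower among all probes. All 7 were dim, with mean water levels from -4.99 for Lce1f to -2.05 for Lce1m. The 1 that fell was Sprr3, a gene of the skin's cornified layer, by 1.15 ± 0.24 (adjusted p = 0.0315). Its call held only without bromate replicate 1 among the fits that left out an array, with adjusted p up to 0.0965 without any other.

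**Figure D3:**
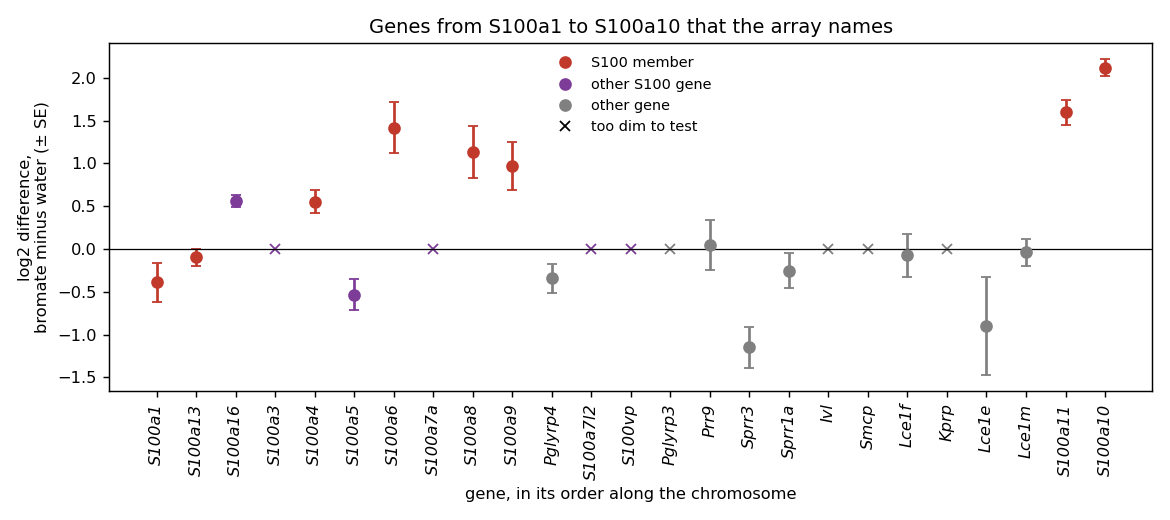
Difference between bromate and water (vertical axis, log2, bromate minus water, bars are SE) for each gene with a named probe from S100a1 to S100a10, in their order along chromosome 2 (horizontal axis, not to scale); crosses on the zero line mark genes too dim to test and carry no value. S100a11 and S100a10, at the right end, have the largest differences, 1.60 and 2.12. The tested genes that are not S100 genes, all of them dim, lie near or below 0.

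Partners of the S100 proteins moved in both directions. Of 19 genes of known binding proteins, 16 had a named probe and 14 were tested, of which 5 rose, 2 fell and 7 did not pass, beside 7.19% higher and 7.60% lower among all probes. The median difference of the 14 was 0.08. Those that rose were Anxa2, Trpv5 and Trpv6, whose products meet S100A10, Anxa1, whose product meets S100A11, and Myh9, whose product meets S100A4. This list was drawn up with results of these data known, and nothing is claimed of it beyond its counts.

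Anxa2, annexin A2, which holds S100A10 in its tetramer, read 5.37, 5.67 and 5.69 in bromate and 3.69, 3.63 and 3.65 in water. The groups lay far apart, and the water arrays were nearly equal. It rose by 1.92 ± 0.11 (adjusted p = 0.00112), or 3.80-fold. The dimmer of its probes gave 1.96 ± 0.14 (adjusted p = 0.00207). S100a10 and Anxa2 differed by 2.12 and 1.92 on the log2 scale.

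Trpv5 and Trpv6 encode calcium channels of the apical membrane, Trpv5 in the distal tubule, and the S100A10 and annexin A2 complex brings them to the cell surface. Trpv6 read -0.75, -0.92 and -0.51 in bromate and -5.45, -4.28 and -3.47 in water. All bromate arrays were bright, and water replicate 1 was not above background. It rose by 3.67 ± 0.48 (adjusted p = 0.0100), or 12.7-fold, and by 2.37 with normexp background correction. Trpv5 read -0.66, 0.27 and -0.52 in bromate and -2.53, -2.20 and -1.51 in water. It rose by 1.78 ± 0.35 (adjusted p = 0.0273), or 3.43-fold, and its dimmer probe gave 1.01 ± 0.25, or 2.01-fold (adjusted p = 0.0498). The call of the brighter Trpv5 probe was lost without water replicate 1 or 2 or bromate replicate 2 or 3 (adjusted p up to 0.0903). Of the other S100A10 partners, Asic1, an acid-gated sodium channel, fell by 0.80 ± 0.18 (adjusted p = 0.0364), a call that held without water replicate 1 and was lost without any other array (adjusted p up to 0.113). Its other 3 probes gave -0.46 to -0.58 and did not pass (adjusted p 0.0574 to 0.108). Dlc1 was at -0.31 ± 0.20 on its brighter probe and 0.02 ± 0.13 on the other, neither past the test.

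Anxa1, annexin A1, an actor in membrane repair and in the ending of inflammation, read 4.24, 4.39 and 4.62 in bromate and 3.45, 3.52 and 3.44 in water. It rose by 0.95 ± 0.11 (adjusted p = 0.00778), or 1.93-fold, with no overlap. The S100A6 partners differed little: Cacybp by 0.05 ± 0.10 and Anxa11 by -0.19 ± 0.10, neither past the test. S100a6 itself differed by 1.42. Myh9, the heavy chain of non-muscle myosin IIA, read -0.14, -0.16 and -0.14 in bromate and -0.81, -0.79 and -0.88 in water. It rose by 0.68 ± 0.07 (adjusted p = 0.00561), or 1.60-fold, beside the 1.47-fold of S100a4.

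**Figure D4:**
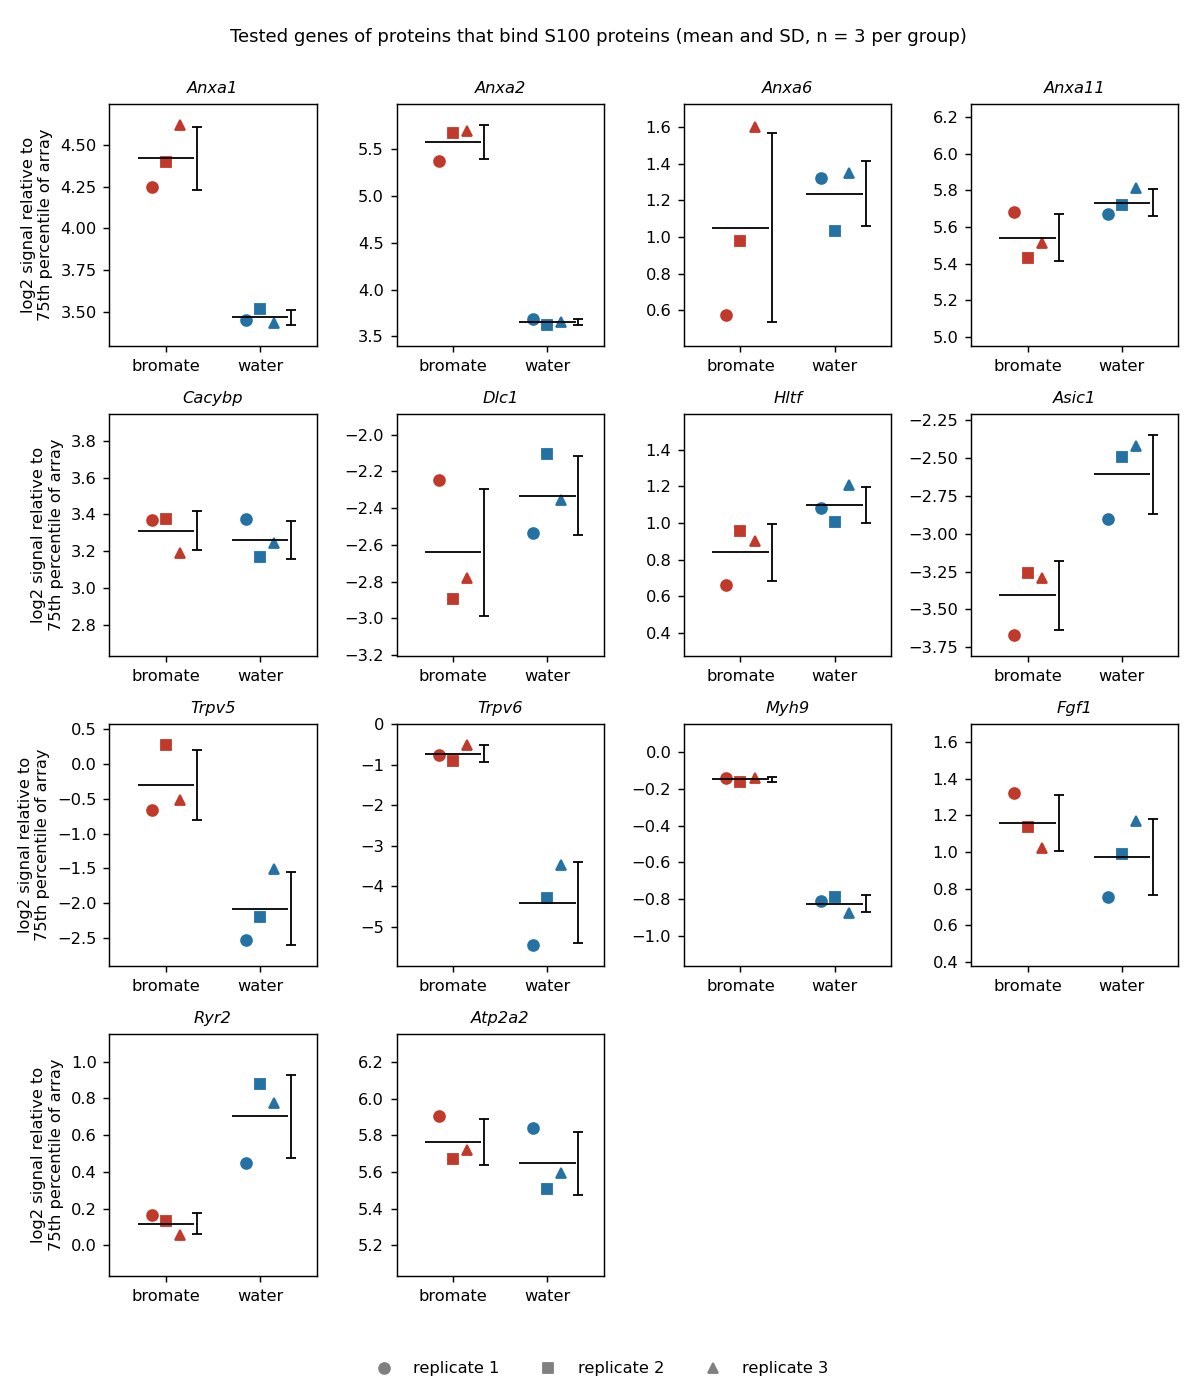
Levels (vertical axis, log2 signal relative to the 75th percentile of the array) of all 14 tested partner genes, each on its brightest probe, in the 3 bromate and 3 water arrays; symbols give replicate numbers, lines the mean and bars the SD, and each panel has its own vertical range. The 5 that rose, Anxa1, Anxa2, Trpv5, Trpv6 and Myh9, lie above water without overlap, the 2 that fell, Asic1 and Ryr2, lie below it, and the other 7 did not pass the test.

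For S100a1, the genes of its heart muscle targets gave no common picture. Ryr2, the calcium release channel, fell by 0.58 ± 0.13 on its brightest probe (adjusted p = 0.0362), which held without water replicate 1 and was lost without any other array (adjusted p up to 0.105). A second probe of Ryr2 was much dimmer, at a mean of -4.23 in bromate and -4.01 in water, and well above background on 5 arrays. It gave -0.23 ± 0.19 (adjusted p = 0.460), and the other 6 probes of Ryr2 were too dim to test. The brightest probe is assigned to another transcript than the rest, so what it reads is uncertain. Atp2a2, the calcium pump, was at 0.12 ± 0.12 on its brightest probe and between -0.34 and 0.12 on the other 3, none past the test, and Anxa6 at -0.19 ± 0.27. Fgf1, which S100A13 helps to leave the cell, was at 0.19 ± 0.14 on its brightest probe and did not pass, while its other probe was called higher, at 0.47 ± 0.10 (adjusted p = 0.0305). Il1a and Syt1, other parts of that route, were not above background on any array.

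Of 9 receptor and co-receptor genes for released S100 proteins, all were tested, and 3 rose, 0 fell and 6 did not pass, beside 7.19% higher and 7.60% lower among all probes. Their median difference was 0.13. The largest was Cd14, a co-receptor of TLR4 and itself a monocyte gene, which read 0.51, 0.88 and 0.78 in bromate and -0.44, -0.52 and -0.56 in water. It rose by 1.23 ± 0.12 (adjusted p = 0.00420), or 2.35-fold, and its dimmer probe rose by 1.56 ± 0.12 (adjusted p = 0.00223). Ly96, the MD-2 subunit of the TLR4 complex, read -0.96, -0.86 and -0.85 in bromate and -1.74, -1.74 and -1.72 in water. It rose by 0.84 ± 0.07 (adjusted p = 0.00334), and its 2 other probes also rose, by 0.84 and 0.83. The Cd14 and Ly96 calls held with each array left out.

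Tlr4 itself, the receptor for the S100A8 and S100A9 pair, read -2.44, -1.43 and -1.89 in bromate and -2.61, -2.85 and -2.64 in water. Bromate replicate 1 was close to water. Its difference of 0.78 ± 0.26 did not pass (adjusted p = 0.0966), and was 1.04 (adjusted p = 0.0353) without that array. Without any other array it ran over 0.53 to 0.82 and did not pass (adjusted p up to 0.227). Ager, which encodes RAGE, read -3.71, -3.78 and -3.80 in bromate and -3.69, -3.19 and -3.41 in water. At -0.33 ± 0.14 it did not pass (adjusted p = 0.158). Mcam, an adhesion receptor of vessels that binds S100A8 and S100A9, rose by 0.68 ± 0.16 (adjusted p = 0.0424), which held without bromate replicate 1 and was lost without any other array (adjusted p up to 0.125). Its dimmer probe gave 0.67 ± 0.21 and did not pass (adjusted p = 0.0875).

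Other EF-hand calcium binders were looked at as relatives outside the S100 family. Of 15 genes listed 14 were tested, of which 3 rose, 1 fell and 10 did not pass, beside 7.19% higher and 7.60% lower among all probes, with a median difference of 0.16. Efhd2, swiprosin-1, which binds actin, rose by 0.80 ± 0.09 (adjusted p = 0.00710) and kept the call with each array left out. Rcn1, a calcium binder of the endoplasmic reticulum, rose by 0.79 ± 0.17 (adjusted p = 0.0330), and its dimmer probe by 0.89 ± 0.10 (adjusted p = 0.00611). Capns1, the small subunit of calpains, rose by 0.39 ± 0.09 (adjusted p = 0.0433). The call of the brighter Rcn1 probe held only without bromate replicate 1, and the Capns1 call only without water replicate 1. Without the other arrays their adjusted p ran up to 0.103 and 0.128.

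The 1 gene that fell was Calb1, calbindin-D28k, which carries calcium through the cells of the distal tubule. It read 0.76, 0.18 and 0.74 in bromate and 1.88, 2.84 and 3.24 in water. The groups did not overlap, and the gap was 1.12. It fell by 2.09 ± 0.37 (adjusted p = 0.0208), or 4.27-fold, and its call held without water replicate 1 and was lost without any other array (adjusted p up to 0.0755). S100g, the other calbindin, lay the other way, at 1.11, without passing. Among 8 markers of other nephron segments, Calb1 included, 5 fell and none rose, beside 7.60% lower and 7.19% higher among all probes, with summed linear levels of 188.6 to 331.7 in bromate and 433.1 to 597.8 in water. Slc4a1 kept its call with each array left out, and the calls of Calb1, Umod, Slc12a1 and Slc12a3 were each lost without water replicate 2 or bromate replicate 2 (adjusted p up to 0.0914). Without bromate replicate 3 Umod, Slc12a3 and Calb1 were lost, and without water replicate 3 Slc12a3 and Calb1. Their part in the Calb1 and Trpv5 values was not tested.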

How the data were processed

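Processed scanner files of 6 single-colour Cy3 arrays and a value table were deposited. Spots were quantified in Agilent Feature Extraction 10.7 according to the submitters' processing notes, with annotation on rat build rn4, per the file headers. The processed spot signal is an intensity that Feature Extraction had corrected for background, per the file headers. The authors' value table, also deposited, is a linear ratio. Set against the scanner values, each column equalled the signal divided by its array's 75th percentile, within 0.242% to 0.417% at the worst probe, with no centring and the direction of the signal. The column medians were 0.1025, 0.1054 and 0.1026 for bromate replicates 1 to 3 and 0.1043, 0.1049 and 0.1030 for water replicates 1 to 3.

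Control and outlier spots were left out. The log2 signal minus the log2 of the array's 75th percentile was compared between bromate and water in limma 3.58.1 (lmFit, eBayes) under R 4.3.3, each probe for itself, over the 37783 of 61537 probes well above background on at least 3 of 6 arrays, with Benjamini-Hochberg adjustment over all of them and a threshold of 0.05. The procedure was tested on simulated data. Probes were named through the RefSeq table of GRCr8 from the transcript in the scanner files: 28206 probes (45.8%) had 1 symbol and the rest none. Of several probes of a list gene, the brightest by mean over the 6 arrays stood for it, and all probes of the 9 S100 genes are given. The members, the lists and the rule for named genes were chosen with earlier results of these data known. The rule names every member probe, every other S100 gene of the list measured, Anxa1, Anxa2, Ager, Tlr4, Calb1 and up to 5 called genes of each list by size; S100vp, Fcnb, Csf3r, Mmp9, C1qb, Upk1b, Sprr3, Umod, Slc12a1, Slc12a3 and Slc4a1 and the genes given as not passing the test were named after their values were seen. A gene not above background on any array of a group is given a bound from the lowest signal well above background on each array. Summed marker levels add linear values relative to the 75th percentile. The number of arrays limits the precision. The p-values set a group difference against the spread between the 3 animals of each group, moderated by the spread over all tested probes. Alternatives were other scalings, the value table, normexp background correction at an offset of 50 followed by quantile normalization, other filters, 1 probe per gene, slide and replicate number as blocks, and each array left out in turn. Python 3.11.15 was used for tables and figures.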

Additional observations from a re-analysis of the deposited data

How the results depend on the processing

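Each of the 15 alternatives, where it gave a value, kept the sign of every tested S100 probe's difference, and the number of S100 probes higher in bromate without overlap was 6 or 7 (7 to 7 with an array left out). S100a10 ranged over 2.06 to 2.17, S100a11 over 1.46 to 1.73 and S100a6 over 1.20 to 1.76. Normexp background correction moved S100a8 to 0.66 and S100b to -0.39, both dim probes, and the cause was not tested. Over the whole table, probes called higher numbered 2717, 1091 with no filter on dim probes, 829 with a replicate block and 871 to 2064 with an array left out. Probes called lower numbered 2872, with 1023, 757 and 785 to 2310 under the same settings. With no filter on dim probes, more probes share the adjustment, and the counts were 2 for other S100 genes higher (S100a16 and S100z, which is below background on all arrays), 0 for partners lower, 1 for EF-hand genes higher and 0 for EF-hand genes lower. With a replicate block they were 0 for other S100 genes higher, 1 for partners lower and 0 for EF-hand genes lower, and S100a16 then had an adjusted p of 0.0527. Trpv5, Ryr2, Mcam, Calb1 and Capns1 also lost their calls under it. Deviations of arrays with the same number correlated at 0.06, 0.07 and -0.09, so the numbers are not taken to pair the animals. With slide as a block, 1 other S100 gene, S100a5, was called lower. With an array left out the counts ran over 1 to 1 for other S100 genes higher and 0 to 1 lower, 4 to 5 for partners higher and 0 to 2 lower, 2 to 4 for receptors higher and 0 to 0 lower, and 1 to 2 for EF-hand genes higher and 0 to 1 lower. S100b was not above background on any bromate array, which leaves a bound for its fold.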
